A study of Mus musculus with 27 samples.

Results

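Polycomb and DNA methylation proteins write the repressive marks of the genome, and 10 of their genes were followed in mouse hearts before birth, in adult life and under pressure overload. They are Dnmt1, Dnmt3a, Dnmt3b and Uhrf1, which act in DNA methylation, Ezh1, Ezh2, Suz12 and Eed, which build Polycomb repressive complex 2 (PRC2), and the methylcytosine oxidases Tet2 and Tet3. The genes were picked by symbol and not by a rule on their values, though earlier results of these data were known. The count table held 57683 features, of which 20031 are protein-coding genes. Of the 10, 9 were listed under these symbols, and Tet3 was listed under an older clone name and matched by its gene identifier.

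DNA methylation places a methyl group on cytosines next to guanines. Dnmt3a and Dnmt3b lay down new methylation, Uhrf1 brings Dnmt1 to freshly replicated DNA so that the pattern is copied at cell division, and the Tet enzymes oxidise methylcytosine as a step towards its removal. PRC2 methylates lysine 27 of histone H3 (H3K27) through its catalytic subunit, which is either Ezh2, typical of dividing cells, or Ezh1, typical of tissues that have stopped dividing, held together with the core subunits Suz12 and Eed. PRC1, a second Polycomb complex, binds the H3K27 mark through its Cbx subunits and ubiquitinates histone H2A.

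Non-stranded libraries of polyadenylated RNA came from 27 hearts. The mice were of the inbred strain C57BL/6J, with no transgene or deletion named in the labels. The groups were 7 whole hearts of embryos at embryonic day E13.5, the ventricular apex of 6 unoperated adults at 6 weeks and of 6 at 16 weeks of age, and, at 12 weeks of age, the apex of 4 adults after 4 weeks of transverse aortic constriction (TAC, surgical banding of the aorta, a model of pressure overload) and of 4 sham-operated adults. Each library was 1 heart, so errors are the spread between animals.

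Depth was 7543375 to 12646039 counts per library at E13.5, 2092270 to 2682955 at 6 weeks, 2164604 to 2642307 at 16 weeks, 10411417 to 11846819 in TAC and 7958592 to 11561952 in sham hearts. The lower depth of the unoperated adults went with another base-quality encoding in the labels, so that depth, encoding and group cannot be told apart when these hearts are set against the others. The adults were labelled male, apart from 1 TAC heart labelled female (replicate F1), and the embryos were labelled as of unknown sex. Y-linked counts disagreed with the labelled sex in 8 adult libraries, 2 in each adult group, and where leaving these libraries out ended a call, that is said beside the result. The hearts carried their labelled tissue: all 7 cardiomyocyte markers were detected in every group, at a summed 22638 to 32707 CPM at E13.5 and 95840 CPM or more in every adult library. CPM are counts relative to library size (per 1e6), scaled with TMM factors over all 27 libraries. In RNA from a whole piece of heart, fewer cells of a type and less RNA per cell cannot be told apart.

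Positions are given on the mm9 build. Dnmt1 spans chr9:20711650-20757317 on the minus strand, Dnmt3a chr12:3806980-3914443 and Dnmt3b chr2:153475186-153513466, both on the plus strand, and Uhrf1 chr17:56442744-56462909 on the plus strand. The PRC2 genes span chr11:101052429-101087777 (Ezh1, minus), chr6:47480273-47545340 (Ezh2, minus), chr11:79806608-79847625 (Suz12, plus) and chr7:97103166-97129493 (Eed, minus). Tet2 spans chr3:133126803-133207332 and the listed model of Tet3 chr6:83318378-83329896, both on the minus strand. Counts are of reads over exons. All exonic bases of Dnmt1, Dnmt3b, Uhrf1 and Tet3 lie outside other listed features, and for the other genes the share is 91.3% (Ezh2), 89.6% (Eed), 81.2% (Dnmt3a), 72.2% (Ezh1), 63.1% (Suz12) and 60.7% (Tet2).

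Embryonic hearts were first set against unoperated adult ones, to see how these genes differ between the developing and the mature organ. At E13.5, 9 of the 10 genes were higher than in unoperated adults and Ezh1 alone was lower, as tested with edgeR (quasi-likelihood, Benjamini-Hochberg adjusted p under 0.05 over all features). The background is high: 83.8% of the 12766 features tested were called, 44.1% higher and 39.7% lower, so the count of called genes says little by itself. The log2 fold change was at least 1 in either direction for 7 of the 10, Suz12, Eed and Tet2 being smaller, and 42.9% of features were called with such a change. The median log2 fold change, taken with its sign, was 1.36 over the 10 genes and 0.07 over all features tested. No test was made between these medians. In 9 genes no E13.5 library overlapped any unoperated adult library, which held for 54.7% of all features tested, and Eed was the exception. Dnmt3b and Uhrf1 reached the test through the embryonic libraries and were too low to be tested between the adult ages.

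**Figure D1:**
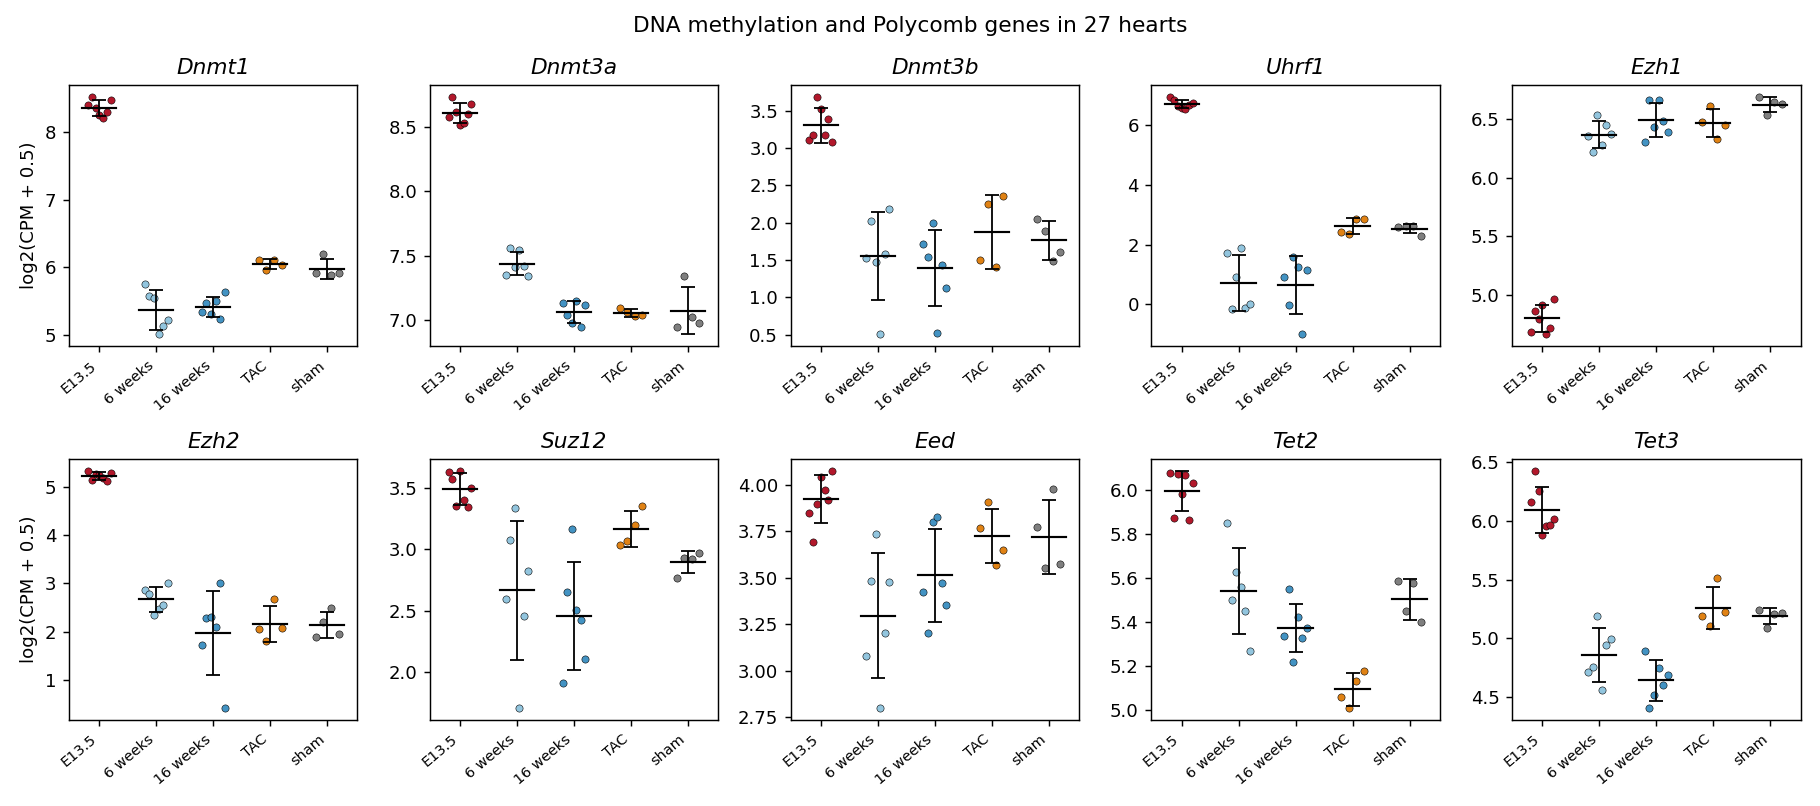
Level of each of the 10 genes in every heart, as log2 of CPM + 0.5, by group; points are single libraries, lines the mean and bars the SD (n = 7, 6, 6, 4 and 4), and the scale differs between panels. The E13.5 points sit above all unoperated adult points in every panel but 2, Ezh1, where they sit below, and Eed, where they overlap.

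Uhrf1, the protein that recruits Dnmt1 to replicated DNA, showed the widest difference of the 10 genes. Its level at E13.5 ran from 92.5 to 123 CPM with a median of 102, against 0.396 to 3.23 CPM (median 0.939) at 6 weeks and 0 to 2.48 CPM (median 1.54) at 16 weeks. The adult libraries of these ages held 0 to 7 Uhrf1 counts each, 37 in all, against 1013 to 2183 counts in each embryonic library. The log2 fold change was 6.23 ± 0.17 (SE, edgeR adjusted p = 1.99e-23, 7 against 12 hearts). Set against the sham hearts, which were sequenced as deeply as the embryos and held 4.39, 5.53, 5.63 and 5.70 CPM, the log2 fold change was 4.22. Uhrf1 was thus detected at a higher level in sham than in unoperated hearts, with no overlap, in libraries that also differed in depth, encoding, age and surgery.

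Dnmt1, the methyltransferase that copies methylation at cell division, ran from 294 to 365 CPM at E13.5 (median 324), against 31.8 to 53.5 CPM (median 41.6) at 6 weeks and 37.1 to 49.5 CPM (median 42.0) at 16 weeks. Every embryonic heart held several times the Dnmt1 RNA of any adult heart, with a log2 fold change of 2.96 ± 0.07 (SE, edgeR adjusted p = 4.83e-25), or 2.29 against sham hearts. Genes of dividing cells differed between E13.5 and adult hearts in the same direction as Dnmt1 and Uhrf1. The summed level of 16 such genes (among them Mki67, Top2a, Pcna and the Mcm helicases) was 1580 to 1825 CPM at E13.5, against 55.4 to 101 CPM at 6 weeks and 60.1 to 76.9 CPM at 16 weeks. All 15 that could be tested were higher at E13.5, as were 44.1% of all features tested. Only 5 of the 16 could be tested between the adult ages, so most reached the E13.5 test through the embryonic libraries. Ccnb1, the mitotic cyclin B1, had no count in any unoperated adult heart. Markers of other cells moved too, in both directions. The summed level of 7 erythroid markers was 12597 to 46222 CPM at E13.5, against 119 to 271 CPM at 6 weeks and 293 to 506 CPM at 16 weeks, with the embryonic globins Hbb-y and Hba-x at 0 in these adults, and 5 epicardial markers summed to 219 to 291 CPM, against 8.30 to 18.3 CPM at 6 weeks and 10.1 to 18.9 CPM at 16 weeks. The embryonic libraries came from whole hearts and the adult ones from ventricular apexes. The 5 atrial markers summed to 1577 to 2307 CPM at E13.5, against 12.0 to 59.8 CPM at 6 weeks and 13.51 to 26.2 CPM at 16 weeks. Bmp10 was at 0 in these adults, and all 4 tested markers were higher at E13.5. Only 1 of the 5 could be tested between the adult ages. Sln was at 0 in every group, but all its exonic bases lie over other listed features, so this 0 does not show that it is absent. Macrophage and endothelial markers were lower in sum: 6 macrophage markers, all 6 called lower, summed to 96.1 to 131 CPM at E13.5, against 169 to 281 CPM at 6 weeks and 183 to 226 CPM at 16 weeks. The 6 endothelial markers summed to 611 to 739 CPM at E13.5, against 935 to 1154 CPM at 6 weeks and 998 to 1198 CPM at 16 weeks, with 2 of 5 tested called higher and 3 lower. The 6 fibroblast markers summed to 1659 to 3558 CPM at E13.5, against 1105 to 1794 CPM at 6 weeks and 964 to 1163 CPM at 16 weeks, with 4 called higher and 2 lower. The part of cell division, of the tissue piece and of cell makeup in the members' differences was not tested.

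The de novo methyltransferases were higher at E13.5 by smaller steps. Dnmt3a ran from 365 to 424 CPM (median 386) at E13.5, against 162 to 188 CPM (median 170) at 6 weeks and 123 to 142 CPM (median 135) at 16 weeks. These 3 ages did not overlap, and the log2 fold change at E13.5 was 1.36 ± 0.05 (SE, edgeR adjusted p = 4.80e-21). Dnmt3b was scarce throughout, with 7.93 to 12.3 CPM (median 8.54) at E13.5, against 0.923 to 4.05 CPM (median 2.44) at 6 weeks and 0.943 to 3.48 CPM (median 2.31) at 16 weeks. Its adult values rest on 2 to 9 counts per library, and its log2 fold change was 1.96 ± 0.19 (SE, edgeR adjusted p = 5.72e-11).

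The catalytic subunits of PRC2 changed in opposite directions. Ezh2 ran from 34.3 to 39.8 CPM (median 37.3) at E13.5, against 4.57 to 7.60 CPM (median 5.87) at 6 weeks and 0.846 to 7.50 CPM (median 4.06) at 16 weeks, a log2 fold change of 2.93 ± 0.13 (SE, edgeR adjusted p = 8.39e-19). Ezh1 ran from 24.9 to 30.7 CPM (median 27.3) at E13.5, against 74.1 to 91.9 CPM (median 81.7) at 6 weeks and 78.6 to 101 CPM (median 87.3) at 16 weeks, a log2 fold change of -1.64 ± 0.07 (SE, edgeR adjusted p = 1.33e-19). All embryonic libraries lay above all adult ones for Ezh2 and below all adult ones for Ezh1. With sham hearts as the adult side the log2 fold changes were 3.16 for Ezh2 and -1.93 for Ezh1.

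Because both genes are read in the same library, their ratio needs no scaling. An E13.5 heart held 0.632 to 0.826 Ezh1 counts per Ezh2 count (median 0.750), against 10.8 to 20.1 (median 13.6) at 6 weeks and 11.8 to 98.5 (median 24.9) at 16 weeks. Ezh2 was thus the more counted of the pair in all 7 embryonic hearts and Ezh1 in all 20 adult hearts. Per kilobase of exon that each gene has to itself, the median ratio was 0.361 at E13.5, 6.55 at 6 weeks and 12.0 at 16 weeks. The mean log2 ratio, with 0.5 added to each count, was -0.43 ± 0.14 (SD, n = 7) at E13.5 and 4.20 ± 0.81 (SD, n = 12) in unoperated adults, a difference of -4.62 (two-sided exact permutation test over libraries, p = 1.98e-05, the smallest this design allows, adjusted p = 5.95e-05 over 3 ratio tests).

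**Figure D2:**
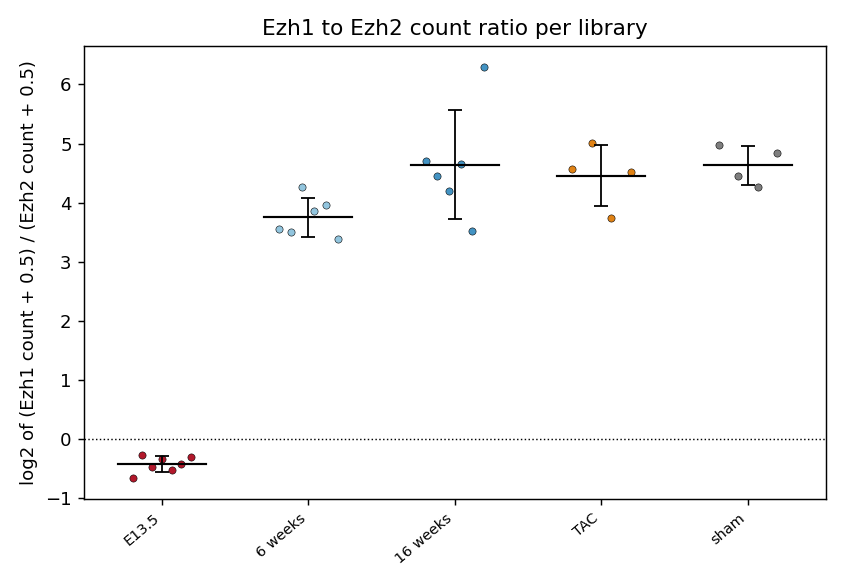
Ratio of Ezh1 to Ezh2 counts in every heart, as log2 with 0.5 added to each count, by group; points are single libraries, lines the mean and bars the SD. The 7 embryonic hearts lie below 0 (more Ezh2 counts) and all 20 adult hearts above it, with 1 heart at 16 weeks, which held 2 Ezh2 counts, far above its group.

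The promoters of Uhrf1, Ezh2 and Ezh1 are shown because they belong to the gene with the widest difference and to the pair that moved in opposite directions. Each is the RefSeq stretch of 300 bases, 250 before to 50 after the gene's start, on GRCm38.p6, another build than the mm9 of the counts. The stretches are chr17:56303087-56303386 on the plus strand for Uhrf1, chr6:47594981-47595280 on the minus strand for Ezh2 and chr11:101226414-101226713 on the minus strand for Ezh1. Capitals mark matches, on either strand, to 4 spellings of the E2F site, TTTCCCGC, TTTCGCGC, TTTGCCGC and TTTGGCGC, or to the CCAAT box, which is bound by NF-Y. E2F factors are known for switching on genes at the start of DNA replication.
Uhrf1: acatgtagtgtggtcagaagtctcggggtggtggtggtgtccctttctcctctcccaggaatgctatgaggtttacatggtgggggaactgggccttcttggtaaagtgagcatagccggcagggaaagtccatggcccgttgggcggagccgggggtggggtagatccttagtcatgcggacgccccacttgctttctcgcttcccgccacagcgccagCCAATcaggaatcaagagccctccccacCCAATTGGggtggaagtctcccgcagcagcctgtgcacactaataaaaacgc
Ezh2: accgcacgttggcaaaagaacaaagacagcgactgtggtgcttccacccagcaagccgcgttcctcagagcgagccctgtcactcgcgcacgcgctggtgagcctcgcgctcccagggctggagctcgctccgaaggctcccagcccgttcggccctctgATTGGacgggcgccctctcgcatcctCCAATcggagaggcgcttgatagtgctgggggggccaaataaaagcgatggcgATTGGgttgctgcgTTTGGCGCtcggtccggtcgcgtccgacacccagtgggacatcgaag
Ezh1: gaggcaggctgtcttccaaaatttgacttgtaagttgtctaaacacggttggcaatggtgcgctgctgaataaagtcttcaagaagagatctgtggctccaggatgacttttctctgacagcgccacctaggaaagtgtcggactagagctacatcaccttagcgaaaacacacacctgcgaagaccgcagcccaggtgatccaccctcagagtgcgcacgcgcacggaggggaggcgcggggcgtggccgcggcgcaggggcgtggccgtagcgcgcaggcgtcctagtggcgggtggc

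In these windows Ezh2 held 1 E2F word, TTTGGCGC at base 254, and 3 CCAAT boxes starting at bases 161, 187 and 240, counted from the 5′ end of the printed sequence. Uhrf1 held no E2F word and 3 CCAAT boxes at bases 221, 249 and 252, of which the last 2 overlap on opposite strands and are printed as 1 run of capitals. Ezh1 held neither. Promoter windows were matched for 9 of the 10 genes, all but Tet3. Of these, 2 (Ezh2 and Suz12) held an E2F word, as did 2.26% of 32851 mouse promoters, and 4 (Uhrf1, Ezh2, Suz12 and Eed) held a CCAAT box, as did 37.4%. Ezh2 held 31 CpG pairs, Ezh1 23 and Uhrf1 12, and all 9 windows held more than the median promoter, which had 7. These matches describe letters in a window and not binding.

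The other PRC2 core subunits and the Tet enzymes differed by less. Suz12 ran from 9.63 to 12.0 CPM (median 10.8) at E13.5, against 2.77 to 9.61 CPM (median 6.07) at 6 weeks and 3.25 to 8.45 CPM (median 5.02) at 16 weeks, a log2 fold change of 0.92 ± 0.15 (SE, edgeR adjusted p = 2.84e-06). Eed ran from 12.4 to 16.4 CPM (median 14.6) at E13.5, against 6.46 to 12.8 CPM (median 9.68) at 6 weeks and 8.69 to 13.7 CPM (median 10.4) at 16 weeks, with overlapping ranges and a log2 fold change of 0.52 ± 0.11 (SE, edgeR adjusted p = 9.18e-05). The Eed difference was lost against sham hearts (log2 fold change 0.12, edgeR adjusted p = 0.316), while that of Suz12 was 0.54 and still called. Within PRC2 the fitted difference was 7.60-fold for Ezh2, 1.90-fold for Suz12 and 1.44-fold for Eed, and no test was made between the genes.

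Tet2 ran from 57.7 to 67.0 CPM (median 64.7) at E13.5, against 38.0 to 57.1 CPM (median 45.7) at 6 weeks and 36.8 to 46.3 CPM (median 40.5) at 16 weeks, a log2 fold change of 0.54 ± 0.07 (SE, edgeR adjusted p = 1.43e-08). Tet3 ran from 58.3 to 85.7 CPM (median 64.3) at E13.5, against 23.1 to 36.1 CPM (median 28.4) at 6 weeks and 20.8 to 29.3 CPM (median 24.6) at 16 weeks, a log2 fold change of 1.36 ± 0.09 (SE, edgeR adjusted p = 3.56e-15). The authors' annotation lists Tet3 with only 2398 exonic bases, so its value covers part of the gene. Tet2 shares exons with 5 noncoding features, and reads from overlapping features cannot be told apart in non-stranded counts.

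**Figure D3:**
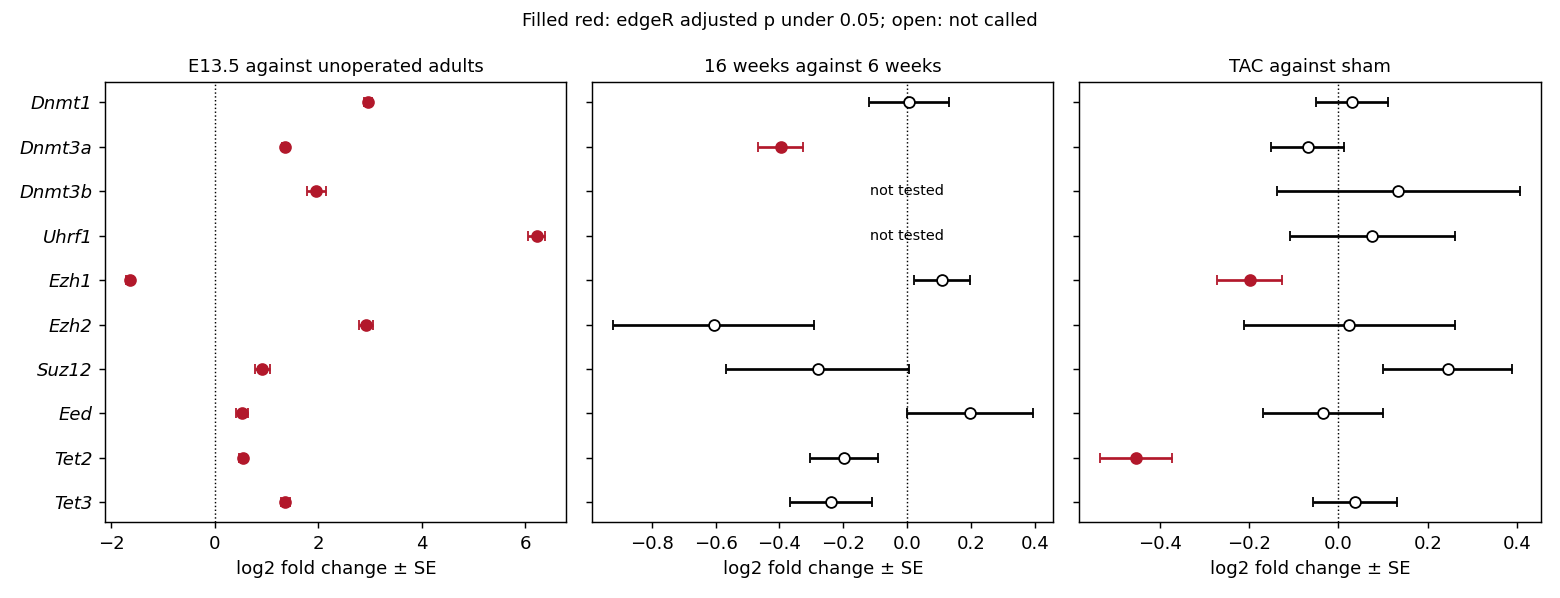
Log2 fold change with its SE for the 10 genes in the 3 comparisons, from edgeR fits over all features; filled red points passed an adjusted p of 0.05 and open points did not, and the scale differs between panels. All 10 genes passed at E13.5, as did 83.8% of all features tested, with Ezh1 alone below 0. Dnmt3a alone passed between the adult ages (2.51% of features), where Dnmt3b and Uhrf1 were not tested. Ezh1 and Tet2 passed in TAC (38% of features).

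Per kilobase of own exon, the genes ranked differently before and after birth. At E13.5 Dnmt1 had the highest level (61.9 ± 4.93 CPM per kb, SD, n = 7), followed by Dnmt3a (48.6 ± 2.63), Tet3 (28.5 ± 4.05), Uhrf1 (24.5 ± 2.57) and Ezh2 (14.3 ± 0.776). Tet2 (11.6), Eed (7.40), Ezh1 (5.11), Suz12 (3.45) and Dnmt3b (1.86 CPM per kb) came after them. At 6 weeks Dnmt3a led (21.7 ± 1.40 CPM per kb, n = 6), and Ezh1 stood next (15.3 ± 1.204), ahead of Tet3 (12.0 ± 1.96), Tet2 (8.49 ± 1.17) and Dnmt1 (7.89 ± 1.61). Uhrf1 closed that order with 0.340 ± 0.297 CPM per kb, below Dnmt3b at 0.512 ± 0.215. In sham hearts Ezh1 stood highest (18.3 ± 0.831 CPM per kb, n = 4), within the spread of Dnmt3a (16.9 ± 2.24).

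**Figure D4:**
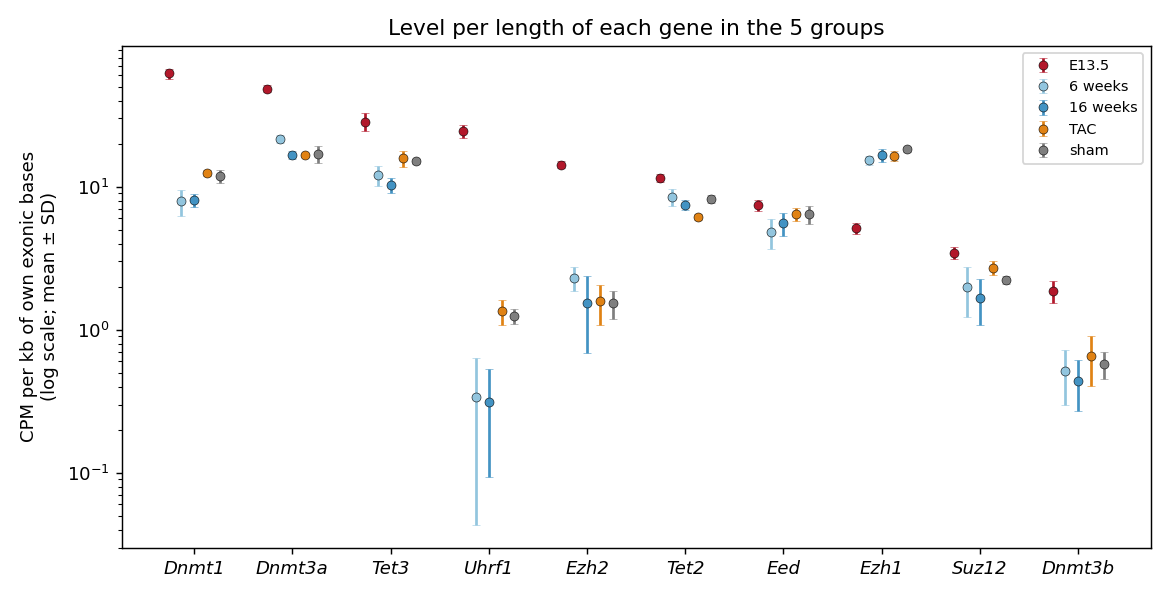
Mean level of each gene per kilobase of its own exonic bases (CPM per kb, log scale), by group, with SD bars; genes are ordered by their E13.5 level. Dnmt1 leads at E13.5 with 61.9 CPM per kb, Dnmt3a leads at 6 weeks with 21.7, and Ezh1 is the one gene whose E13.5 point lies below its adult points.

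Across the 5 groups, E13.5 did not overlap the next group in order for 8 of the 10 genes, the exceptions being Suz12 and Eed. The share of all features with such a gap was not counted, so the 8 cannot be set against a background. Against the unoperated adults alone, 54.7% of all features tested did not overlap. For Dnmt1 the order was E13.5 (327 CPM), TAC (66.0), sham (62.7), 16 weeks (42.4) and 6 weeks (41.7), with gaps without overlap below E13.5 and below sham. Dnmt3a was highest at E13.5 (389 CPM), then at 6 weeks (173), and its remaining groups, TAC (133), 16 weeks (133) and sham (135), overlapped. For Uhrf1 the order was E13.5 (105 CPM), TAC (5.74), sham (5.31), 6 weeks (1.45) and 16 weeks (1.32), with a gap between sham and 6 weeks. Ezh1 was ordered, from the lowest, E13.5 (27.4 CPM), 6 weeks (82.2), TAC (88.0), 16 weeks (89.6) and sham (98.0), all adult neighbours overlapping. Ezh2 had 36.8 CPM at E13.5, 5.95 at 6 weeks, 4.07 in TAC, 3.95 at 16 weeks and 3.95 in sham hearts, and its 4 adult groups overlapped in this order. For Tet2 the lowest group was TAC (33.7 CPM), clear of 16 weeks (41.0), while 6 weeks (46.4) and sham (44.9) overlapped. Tet3 had 38.0 CPM in TAC, 36.0 in sham, 28.9 at 6 weeks and 24.7 at 16 weeks, each overlapping its neighbour.

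Of 44 other genes of these pathways, 40 could be tested at E13.5, and 27 were higher and 10 lower, with a median log2 fold change of 0.73. Without the libraries at odds with their sex label, 34 were called, against 37 with them. Over all features tested 44.1% were higher and 39.7% lower, and no test was made of the list's direction. Phf19, Pcgf6, Rybp, Hells, Gadd45b and Mbd4, all among the genes called higher, could not be tested between the adult ages. They reached the E13.5 test through the embryonic libraries, where they are high, so their direction adds no support. Among PRC2 subunits and partners, 6 of 7 were higher and 1 lower. The polycomb-like proteins, which guide PRC2 to its sites, split: Phf19 averaged 7.98 ± 0.929 CPM at E13.5 and 2.54 ± 0.942 in unoperated adults (SD, n = 7 and 12; log2 fold change 1.64 ± 0.17, SE) and Mtf2 11.9 ± 1.01 and 4.28 ± 1.69 CPM (1.47 ± 0.17), while Phf1 averaged 32.6 ± 2.95 and 57.8 ± 11.9 CPM (-0.81 ± 0.08). Rbbp4, a histone-binding core subunit, averaged 97.5 ± 8.74 and 36.3 ± 7.46 CPM (1.43 ± 0.08).

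Of 17 PRC1 genes tested, 12 were higher and 5 lower, where 44.1% of all features tested were higher and 39.7% lower. Members of 1 family went both ways. Cbx2, a chromodomain subunit that reads the H3K27 mark, averaged 50.5 ± 4.40 CPM at E13.5 and 11.2 ± 1.98 in unoperated adults (log2 fold change 2.18 ± 0.09, SE), and Cbx7, of the same family, 5.44 ± 2.44 and 35.1 ± 7.54 CPM (-2.69 ± 0.16). Pcgf2, also named Mel18, averaged 98.6 ± 4.71 and 12.96 ± 3.75 CPM (2.92 ± 0.10), and its relative Bmi1 11.8 ± 1.21 and 20.7 ± 1.81 CPM (-0.81 ± 0.09). Pcgf5 averaged 6.11 ± 1.07 and 22.1 ± 4.26 CPM (-1.84 ± 0.12), and Rybp, a subunit of the Cbx-free PRC1 forms, 8.82 ± 0.939 and 2.13 ± 1.06 CPM (2.08 ± 0.19). The edgeR adjusted p-values of these 6 genes were 1.14e-09 or lower.

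Both H3K27 demethylases were higher at E13.5: Kdm6b averaged 261 ± 20.3 CPM at E13.5 and 151 ± 21.0 in unoperated adults (log2 fold change 0.79 ± 0.07, SE), and Kdm6a, which is X-linked, 26.2 ± 6.91 and 13.9 ± 4.25 CPM (0.91 ± 0.17), with overlapping ranges. Y-linked counts were 690 and 826 in E13.5 replicates 3 and 6 and 0 to 6 in the other embryos. Of the 12 adult libraries, the 4 at odds with their sex label held 0 or 1 and the rest 101 to 219. The part of sex in the Kdm6a difference was not tested. Of 6 further DNA methylation genes, 4 were higher, 1 lower and 1 was not called. The background for these and for the demethylases was 44.1% of all features tested higher and 39.7% lower. Uhrf2, the relative of Uhrf1, averaged 54.3 ± 3.05 and 20.1 ± 2.10 CPM (1.44 ± 0.07), and Tet1, the third Tet enzyme, 14.2 ± 1.32 and 4.54 ± 2.32 CPM (1.67 ± 0.17). The authors' annotation lists Tet1 with only 2247 exonic bases, fewer than the 2398 of Tet3. Hells, a chromatin remodeller needed for DNA methylation, averaged 5.11 ± 0.455 CPM at E13.5 and 0.0761 ± 0.178 CPM in unoperated adults, where 2 counts were found over 12 libraries. It reached the test through the embryonic libraries and could not be tested between the adult ages. The stress-induced Gadd45a, linked to active demethylation, was lower, with 3.35 ± 1.08 and 11.5 ± 2.39 CPM (-1.79 ± 0.18).

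Methyl-DNA readers showed no common direction: of 8, 3 were higher, 3 lower and 2 not called, with a median log2 fold change of -0.04. Of all features tested, 44.1% were higher and 39.7% lower. Mbd4, a DNA repair glycosylase that binds methylated sites, was higher (1.75 ± 0.16, SE), as was Zbtb33, also named Kaiso (0.73 ± 0.17). Zbtb4 (-1.03 ± 0.07), Mbd2 (-0.79 ± 0.08) and Zbtb38 (-0.71 ± 0.07) were lower. Mbd3 was called higher by a small step (0.19 ± 0.07, edgeR adjusted p = 0.0116), and its sign turned against sham hearts (-0.12).

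**Figure D5:**
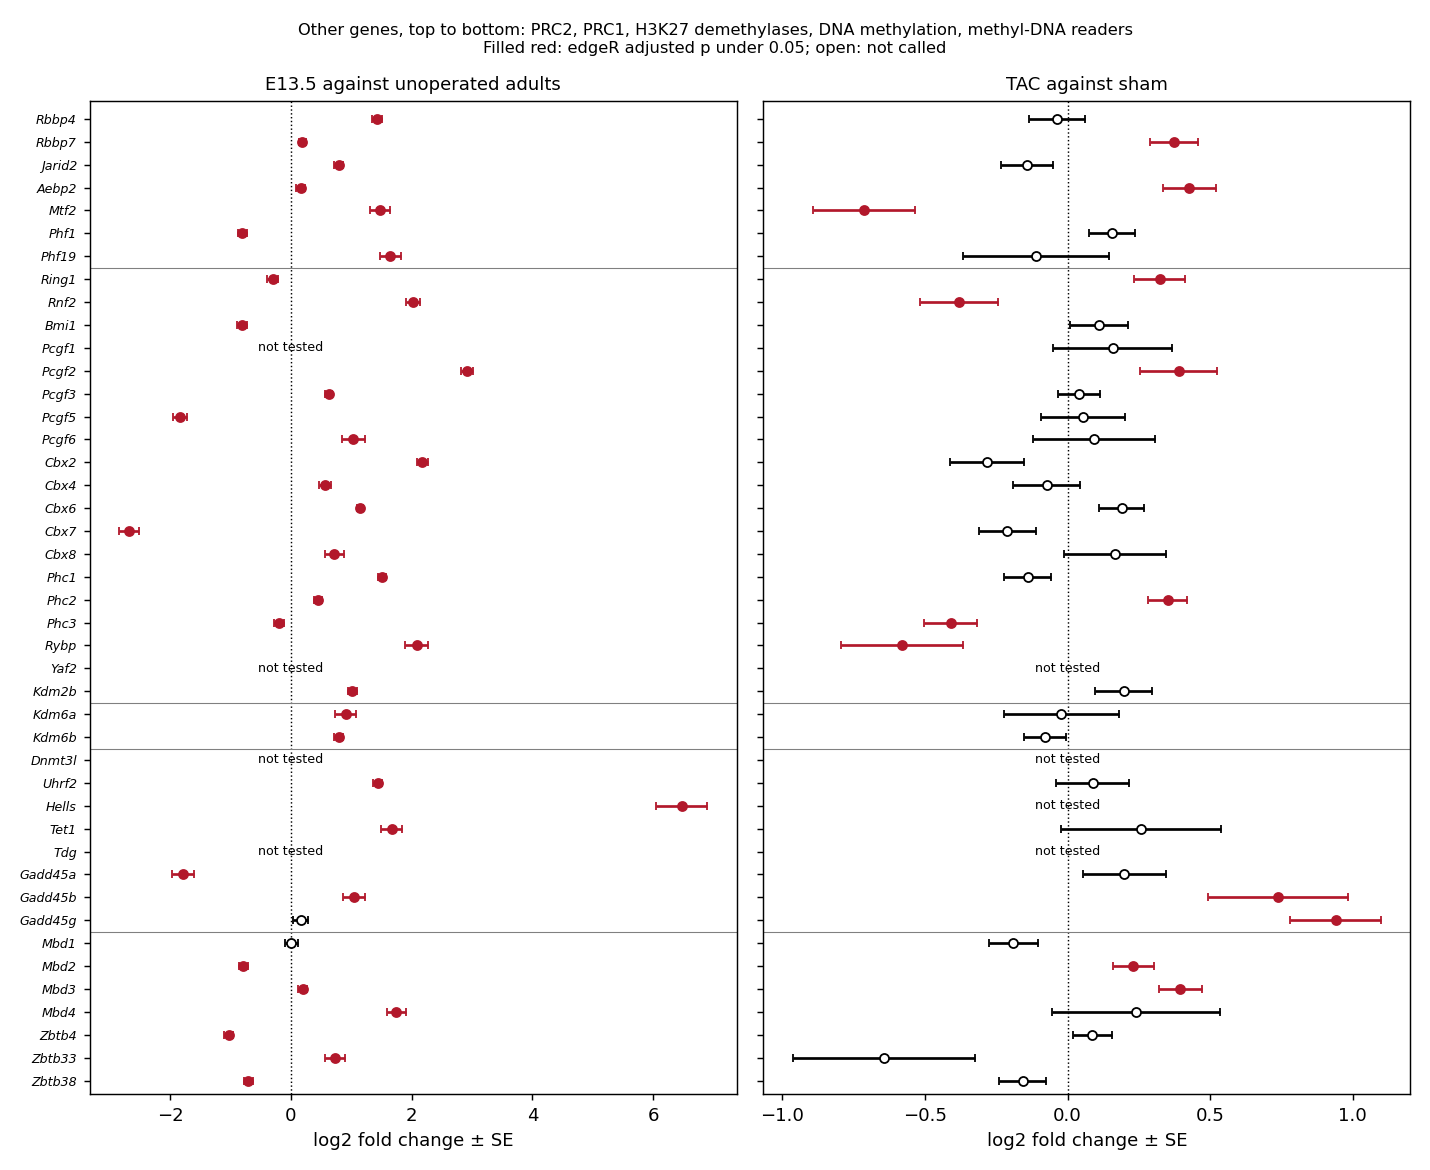
Log2 fold change with its SE for other genes of the Polycomb and DNA methylation pathways, at E13.5 against unoperated adults and in TAC against sham hearts, with lines between the gene lists; filled red points passed an adjusted p of 0.05. The E13.5 panel has 27 genes called above 0 and 10 below, and the TAC panel, on a narrower scale, has 9 above and 4 below.

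The comparison of the adult ages asked what still changes between 6 and 16 weeks. Of the 8 genes that could be tested, Dnmt3a was called: it held 123, 135 and 142 CPM (lowest, median and highest of 6) at 16 weeks, against 162, 170 and 188 CPM at 6 weeks. The highest 16-week heart lay below the lowest 6-week heart. The groups did not overlap, in either direction, for 2.04% of the features tested. The log2 fold change was -0.40 ± 0.07 (SE, edgeR adjusted p = 0.00487), and 2.51% of 10394 features were called in this comparison, 1.19% lower. Across 20 settings, leaving out any library among them, the value stayed between -0.45 and -0.37 and was called in 20 of them. Sham hearts at 12 weeks, with 123, 126, 130 and 162 CPM, lay near the 16-week level apart from 1 library, and TAC hearts had 130 to 136 CPM.

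The other 7 genes that could be tested between the ages were not called. Their log2 fold changes were 0.00 ± 0.13 for Dnmt1, 0.11 ± 0.09 for Ezh1, -0.61 ± 0.32 for Ezh2, -0.28 ± 0.29 for Suz12, 0.20 ± 0.20 for Eed, -0.20 ± 0.11 for Tet2 and -0.24 ± 0.13 for Tet3 (SE, edgeR adjusted p from 0.343 to 0.993). Without the libraries at odds with their sex label, the value of Ezh2 was -0.079 (edgeR adjusted p = 0.943). The SEs of Ezh2 and Suz12 are wide, and these libraries hold 2 to 17 counts of Ezh2 and 6 to 21 of Suz12.

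The Ezh1 to Ezh2 ratio was higher at 16 than at 6 weeks, but not stably. The 16-week hearts held 28.2, 23.1, 19.2, 26.8, 11.8 and 98.5 Ezh1 counts per Ezh2 count, against 12.1, 11.7, 20.1, 15.2, 16.1 and 10.8 in the 6-week hearts. The groups overlap, and 4 of the 16-week hearts exceed every 6-week heart. The mean log2 ratio was 4.64 ± 0.92 (SD, n = 6) at 16 weeks and 3.76 ± 0.33 (SD, n = 6) at 6 weeks, a difference of 0.88 (two-sided exact permutation test, p = 0.0303, adjusted p = 0.0455 over 3 ratio tests). Without the 16-week heart that held 2 Ezh2 counts, replicate 6, the difference was 0.55 (exact p = 0.0563), and without the 4 libraries at odds with their sex label it was 0.31 (exact p = 0.343).

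Between the ages 34 of the 44 other pathway genes could be tested, and 1 was called, against 2.51% of all features tested. That gene was Cbx7, the PRC1 chromodomain subunit, with 41.0 ± 5.44 CPM at 16 weeks and 29.2 ± 3.57 CPM at 6 weeks (SD, both n = 6; a log2 fold change of 0.47 ± 0.12, SE, edgeR adjusted p = 0.0377), and it kept its call in 10 of 20 settings. Without the libraries at odds with their sex label its log2 fold change was 0.52 (edgeR adjusted p = 0.0981). The log2 fold change of Cbx7 at E13.5 was -2.69, in a comparison that shares these 12 adult hearts. The summed level of the dividing-cell genes, 60.1 to 76.9 CPM at 16 weeks, lay within the range of 55.4 to 101 CPM at 6 weeks.

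The comparison of TAC with sham hearts asked what pressure overload changes. Tet2 was lower in TAC hearts, with 31.8, 32.9, 34.6 and 35.7 CPM in TAC hearts, against 41.7, 43.2, 47.2 and 47.5 CPM in sham hearts. The groups did not overlap, and the TAC hearts also lay below every heart at 6 and 16 weeks. The log2 fold change was -0.45 ± 0.08 (SE, edgeR adjusted p = 0.000423), or 0.731-fold, and 16 of 16 settings called it, between -0.52 and -0.40. In this comparison 38% of 14555 features were called, 19.6% higher and 18.4% lower, and 35.5% did not overlap, so 2 called genes of 10 is a smaller share than the background. Calls of at least 2-fold made up 7.39% of features, and both called genes changed by less.

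The other called gene was Ezh1, with 79.7, 86.8, 88.1 and 97.3 CPM in TAC hearts, against 91.97, 98.2, 99.4 and 103 CPM in sham hearts. The ranges overlap by 1 TAC heart, and the log2 fold change of -0.20 ± 0.07 (SE, edgeR adjusted p = 0.0405) passed the threshold in 6 of 16 settings. Leaving out sham replicate 1, 3 or 4 or TAC replicate 1, 3 or F1 ended the call (edgeR adjusted p from 0.0796 to 0.120), as did leaving out the libraries at odds with their sex label (-0.16, edgeR adjusted p = 0.154).

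Ezh2 had 2.98, 3.68, 3.71 and 5.90 CPM in TAC hearts, against 3.21, 3.37, 4.13 and 5.09 CPM in sham hearts, a log2 fold change of 0.02 ± 0.24 (SE, edgeR adjusted p = 0.946). The groups overlap fully. The Ezh1 to Ezh2 count ratio was 13.51, 23.4, 24.0 and 32.6 in TAC hearts, against 19.5, 22.2, 29.2 and 32.0 in sham hearts, and all 8 hearts lay far above the embryonic ratios, which were below 1. Per kilobase of own exon the median ratio was 11.4 in TAC hearts and 12.4 in sham hearts. The mean log2 ratio was 4.46 ± 0.52 (SD, n = 4) in TAC hearts and 4.64 ± 0.33 (SD, n = 4) in sham hearts, a difference of -0.18 (two-sided exact permutation test, p = 0.686, smallest possible p 0.0286). Without TAC replicate 3 the difference was 0.06.

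Suz12 had 7.69, 7.89, 8.69 and 9.74 CPM in TAC hearts, against 6.30, 7.09, 7.12 and 7.35 CPM in sham hearts. These groups did not overlap, yet the log2 fold change of 0.24 ± 0.14 (SE, edgeR adjusted p = 0.198) was not called. The methylation writers and Uhrf1 were higher at E13.5, as were 44.1% of all features tested there, but were not called in TAC. Dnmt1 had 61.9 to 68.7 CPM in TAC hearts, against 58.4 to 72.6 CPM in sham hearts (log2 fold change 0.03 ± 0.08, SE), and Dnmt3a 130 to 136 CPM in TAC hearts, against 123 to 162 CPM in sham hearts (-0.07 ± 0.08). Uhrf1 had 4.58, 4.90, 6.72 and 6.76 CPM in TAC hearts, against 4.39, 5.53, 5.63 and 5.70 CPM in sham hearts (0.08 ± 0.19), far from its 92.5 CPM or more at E13.5. Dnmt3b (0.13 ± 0.27), Eed (-0.03 ± 0.13) and Tet3 (0.04 ± 0.09) were not called either, and edgeR adjusted p-values of these 6 genes ran from 0.540 to 0.865. The wide SEs of Dnmt3b and Ezh2 go with low counts, 15 to 40 of Dnmt3b and 28 to 55 of Ezh2 per library.

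Of the 44 other pathway genes, 40 were tested in TAC, 9 were higher, 5 lower and 26 not called, with a median log2 fold change of 0.09. Over all features tested, 19.6% were higher and 18.4% lower, so these counts say little by themselves. Among PRC2 partners, Aebp2 averaged 40.4 ± 3.74 CPM in TAC hearts and 29.2 ± 2.76 in sham hearts (SD, n = 4 each; log2 fold change 0.43 ± 0.09, SE, edgeR adjusted p = 0.00199), and the histone-binding Rbbp7 64.0 ± 3.76 and 48.1 ± 5.12 CPM (0.37 ± 0.08, adjusted p = 0.00244). Mtf2, which guides PRC2 to unmethylated CpG-rich sites, fell to 3.31 ± 0.198 CPM in TAC hearts, against 5.29 ± 0.552 CPM in sham hearts (-0.71 ± 0.18, adjusted p = 0.00499), and lost its call without the libraries at odds with their sex label (adjusted p = 0.0682).

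Of 18 PRC1 genes, 3 rose and 3 fell, against 19.6% and 18.4% of all features tested. The E3 ligases of the complex went opposite ways: Ring1 averaged 42.8 ± 4.95 CPM in TAC hearts and 33.3 ± 1.76 in sham hearts (log2 fold change 0.32 ± 0.09, SE, edgeR adjusted p = 0.0108), and Rnf2, also named Ring1b, 10.99 ± 1.47 and 13.9 ± 1.76 CPM (-0.38 ± 0.14, adjusted p = 0.0380). The polyhomeotic subunits split likewise, with Phc2 at 101 ± 3.35 CPM in TAC hearts and 77.1 ± 5.71 in sham hearts (0.35 ± 0.07, adjusted p = 0.00101) and Phc3 at 40.04 ± 3.48 and 51.8 ± 5.84 CPM (-0.41 ± 0.09, adjusted p = 0.00261). Pcgf2 rose (0.39 ± 0.14, adjusted p = 0.0319) and Rybp fell (-0.58 ± 0.21, adjusted p = 0.0423), but the call was lost in 4 of 8 fits without 1 library for Pcgf2 and in 6 of 8 for both Rybp and Rnf2. Without the libraries at odds with their sex label, Rybp was not called (-0.63, edgeR adjusted p = 0.131).

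Among the methyl-DNA readers, Mbd3 and Mbd2 rose in TAC. Mbd3 averaged 146 ± 4.72 CPM in TAC hearts and 107 ± 12.0 in sham hearts (SD, n = 4 each; log2 fold change 0.40 ± 0.08, SE, edgeR adjusted p = 0.000835), and Mbd2 68.4 ± 4.52 and 56.6 ± 2.65 CPM (0.23 ± 0.07, adjusted p = 0.0188). Of 5 further DNA methylation genes tested, 2 rose, both stress-induced Gadd45 genes: Gadd45g averaged 24.1 ± 4.02 CPM in TAC hearts and 12.3 ± 2.70 in sham hearts (0.94 ± 0.16, adjusted p = 0.000400), and Gadd45b 7.95 ± 1.48 and 4.66 ± 1.80 CPM (0.74 ± 0.25, adjusted p = 0.0286). Gadd45b lost its call in 5 of 8 fits without 1 library and Mbd2 in 1. Mbd2 was not called without the libraries at odds with their sex label (0.22, edgeR adjusted p = 0.0817).

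Markers of other cells moved with TAC, where 38% of all features tested were called, 19.6% higher. The 6 fibroblast markers, all detected, summed to 1519 to 2611 CPM in TAC hearts, against 839 to 896 CPM in sham hearts, and 4 of the 6 rose. The 6 macrophage markers, all detected, summed to 343 to 478 CPM in TAC hearts, against 260 to 275 CPM in sham hearts, and 3 of the 6 rose. The 16 dividing-cell genes summed to 124 to 159 CPM in TAC hearts, against 108 to 126 CPM in sham hearts, with 1 of 13 called. Their part in the changes of Tet2, Ezh1 and the other pathway genes was not tested.

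The genes whose pattern over the 27 libraries was most like each of the 10 are given as a description, by Pearson's r of log2 CPM among 9856 coding genes; all share the gap between embryonic and adult hearts, and the libraries' depth. Nearest to Uhrf1 were E2f1 (r = 0.98), a factor of replication onset, Mcm5 (0.98), a replication helicase subunit, and Cntrl (0.97). Dnmt1 was closest to Lmnb1 (0.99), which encodes the nuclear lamina protein lamin B1, Gtse1 (0.99) and Ttyh3 (0.99). Near to Ezh1 were Mcur1 (0.99), a regulator of mitochondrial calcium uptake, and Txlnb (0.99), a muscle taxilin. Ezh2 was nearest to Ccdc88a (0.96), Plagl1 (0.96) and Sphkap (0.96). Plagl1 (0.98) and Peg3 (0.98), both imprinted genes, and the chloride transporter Clcn5 (0.98) were nearest to Dnmt3a. Tet2 was nearest to Bclaf1 (0.94), Mga (0.93) and Cnot1 (0.93), whose means were also lower in TAC than in sham hearts: 47.3 and 71.8 CPM for Bclaf1, 28.9 and 42.5 CPM for Mga, and 126 and 179 CPM for Cnot1. Tet3 was nearest to Nt5dc2 (0.97), Zswim8 (0.96) and Sh3bp4 (0.96). For the scarce Dnmt3b, Suz12 and Eed the highest r was 0.92 with Aff2, 0.86 with Lrwd1 and 0.81, again with Lrwd1.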

How the data were processed

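RNA was profiled in 27 hearts. Reads were aligned and counted by the authors with Bowtie, TopHat 1.3.0 and HTSeq on build mm9 (NCBIM37); this is per the submitters' processing notes, where DESeq and edgeR are listed as well. The counting mode is not given in the sources used here. The deposited values are raw counts per feature, and the files of all 27 libraries matched the series table. The total line was left out.

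Counts were fitted in R 4.3.3 with edgeR 4.0.16: its filterByExpr kept features with at least 10 counts in enough libraries and 15 in all, TMM set the scale, and the quasi-likelihood test was run with robust dispersions, adjusted over all features and called below 0.05. The contrasts were E13.5 minus the average of both unoperated ages, 16 minus 6 weeks, and TAC minus sham. DESeq2 1.42.0 was an alternative, and the fits were checked on simulated counts. Each SE is the size of the log2 fold change divided by the root of its F statistic. Levels per kilobase use exonic bases outside all other features. The Ezh1 to Ezh2 ratio was tested by exact permutation over libraries, with 0.5 added to each count. From each pathway list, up to 3 called genes with the largest change per direction and a mean of at least 1 CPM could be named. The genes and lists were chosen with earlier results of these data known. Likeness is Pearson's r of log2(CPM + 0.5) among coding genes with a mean of at least 5 CPM. Promoters are from RefSeq (GRCm38.p6), kept within 1000 bases of the principal transcript's start. Count errors shown are between animals. Some genes that met these rules are not reported here.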

Additional observations from a re-analysis of the deposited data

Results flagged for a closer look

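In 3 of 55 groups of values, 1 library lay far from the others of its group, judged by its gap over the group's range; chance alone marks about 1 group in 20. All 3 are sham libraries. Sham replicate 2 held 72.6 CPM of Dnmt1, where the others had 58.4 to 60.2 CPM, and 162 CPM of Dnmt3a, where the others had 123 to 130 CPM. Sham replicate 4 held 4.39 CPM of Uhrf1, where the others had 5.53 to 5.70 CPM.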

How the results depend on the processing

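Of the 10 genes at E13.5, 9 kept their direction and call under 28 alternatives, and Eed lost its call with sham hearts as the adult side (0.12). The features called there numbered 10695, 18408 without the filter on low counts (66.3% of them higher, against 52.6%; median log2 fold change 0.63, against 0.07) and 10409 to 10853 without single libraries; RLE scaling moved that median to 0.11. Mbd3 turned to -0.12 against sham hearts. Between the ages, 261 features were called, 508 without the filter, 420 with all 27 libraries in 1 fit, 138 without the libraries at odds with their sex label and 107 to 364 without single libraries. The other pathway genes called there numbered 1, and 2 with DESeq2, without the filter or when every library of a group had to reach 1 CPM, 0 without the libraries at odds with their sex label and 0 to 3 without single libraries. Dnmt1 turned to -0.0030 without the filter and ran from -0.063 to 0.096 without single libraries. In TAC, 2 of the 10 genes were called, and 1 without the filter, with all 27 libraries, with a replicate block, without the libraries at odds with their sex label, and in 6 of 8 fits without 1 library (range 1 to 2). Features called in TAC numbered 5528, and 4521 to 5569 without single libraries; other pathway genes 14, and 10 to 16.

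Uncalled genes turned sign in TAC: Eed to 0.021 without the filter and 0.0069 with all 27 libraries, and, without the libraries at odds with their sex label, Dnmt3a to 0.071, Uhrf1 to -0.10, Ezh2 to -0.029, Eed to 0.13 and Tet3 to -0.13. Without single libraries Dnmt3a ran from -0.11 to 0.027, Dnmt3b from -0.047 to 0.30, Uhrf1 from -0.014 to 0.18, Ezh2 from -0.21 to 0.16, Eed from -0.092 to 0.060 and Tet3 from -0.059 to 0.096. With the replicate number as a block, 3729 features were called in TAC, Ezh1 lost its call (-0.19, adjusted p = 0.176) and Dnmt3b turned to -0.13, Uhrf1 to -0.12 and Ezh2 to -0.053. Correlations of same-numbered libraries' deviations ran from -0.07 to 0.03 between TAC and sham and from -0.05 to 0.11 between the ages. They ran from -0.21 to 0.20 between E13.5 and the unoperated adults. The replicate numbers were not taken to pair the samples.

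The Ezh1 to Ezh2 difference at E13.5 ran from -4.70 to -4.43 without single libraries. Between the ages it was 0.88, ran from 0.55 to 1.11 without single libraries, with exact p from 0.00649 to 0.0693, lost its call without 16-week replicate 6 and without 6-week replicates 1, 2, 4 and 6, was 0.31 without the libraries at odds with their sex label (exact p = 0.343), and had p = 0.125 with the replicate block (0.88). In TAC it ran from -0.36 to 0.061. The causes were not tested. Depth limits Uhrf1, Dnmt3b, Ezh2 and Suz12 in unoperated adults, where a library holds 0 to 21 counts of each; fits with the embryos thinned to adult depth kept all 10 calls.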
